A study of Mus musculus with 3 samples.

Results

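Chemokine receptors were described across the cells of regenerating mouse muscle. The 9 receptors were taken by symbol from the 32285 genes of the deposited matrices: Ccr1, Ccr2, Ccr7, Cxcr4, Cxcr6, Cx3cr1, Xcr1, Ackr1 and Ackr3, and each of the 9 had UMIs in all 3 libraries. The tibialis anterior of C57/BL6J mice, a muscle at the front of the lower leg, was damaged with BaCl2, which kills myofibres and starts regeneration, and single-cell RNA was sequenced at day 4. Young mice (3 to 4 months) and old mice (24 to 26 months) had 3 intramuscular injections of PBS, and a further set of old mice (24 to 26 months) had 3 injections of 0.1 µg of recombinant Meteorin-like (rMETRNL), a secreted protein. All 3 groups carried the injury, and none was uninjured. Each library was a pool of 3 samples, so each group (young PBS, old PBS, old rMETRNL) was 1 library, no replicate error could be had, and no test was made. A difference between 2 libraries cannot be told apart from a difference between 2 pools or 2 library preparations.

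Chemokines are small secreted proteins that steer leukocytes, and their receptors are G protein-coupled receptors of the cell surface. Ccr2, Ccr1 and Cx3cr1 are known from monocytes and macrophages, Ccr7 guides mature dendritic cells towards lymph nodes, Xcr1 marks the dendritic cells best at cross-presentation (cDC1), and Cxcr6 is carried by T and NK cells. Cxcr4 binds Cxcl12 on many cell types, while the atypical receptors Ackr1 and Ackr3 bind chemokines without the usual G protein signal, Ackr1 at the venular wall and Ackr3 as a scavenger of Cxcl12. In injured muscle, monocytes that carry Ccr2 are the known source of most early macrophages.

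The matrices held 12168, 12568 and 14012 barcodes in the young PBS, old PBS and old rMETRNL libraries, with 179295668 to 228966697 UMIs a library (a UMI is 1 counted RNA molecule). After filters, 10270, 9957 and 11455 cells were kept, and 258 of the 31682 kept cells had a barcode found in another library. Cells were clustered without any chemokine receptor among the genes used and were named "-like" from marker lists that hold none, here shortened to the bare name. Endothelial, T/NK and tenocyte markers were all highest in the class they named (10 of 10, 12 of 12 and 10 of 10), as were 11 of 12 macrophage/monocyte and 10 of 12 dendritic markers. The check went less well for fibro-adipogenic progenitors (FAPs, 8 of 10), for muscle stem cells and myoblasts (MuSC/myoblasts, 6 of 10), and for the Il1a/Slc7a11 macrophage subset, where 3 of 10 were highest. That subset is therefore called by its leading genes only. Levels are CPM, the UMIs of a gene summed over a class or subset and scaled to the same total in each, with an exact 95% Poisson interval where one is given, and every interval covers counting error only. Wherever 3 values follow each other they stand for the young PBS, old PBS and old rMETRNL libraries in that order. A ratio is called where it is at least 1.5-fold and the receptor has at least 50 UMIs in that class over the 3 libraries.

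Each receptor had a home class, the class of at least 100 kept cells in each library in which its mean level was highest. Macrophages and monocytes were the home of Ccr1, Cxcr4 and Cx3cr1, dendritic cells of Ccr7 and Xcr1, T/NK cells of Ccr2 and Cxcr6, endothelial cells of Ackr1, and FAPs of Ackr3. The gap to the next class ran from very wide to none. Cxcr6 in T/NK cells was 696.5 times its level in macrophages, the next class, and Xcr1 in dendritic cells was 115 times the next. Ackr1 was 24.8 times higher in endothelial cells than in FAPs. Gaps were narrower for Cx3cr1 (6.02 times, macrophages over dendritic cells), Ccr7 (5.68 times, dendritic over T/NK cells), Ccr1 (3.21 times, macrophages over dendritic cells) and Cxcr4 (2.20 times, macrophages over T/NK cells). In these 7 receptors the 3 library values of the home class did not overlap those of the next. Ccr2 was 1.25 times higher in T/NK than in dendritic cells, also without overlap, while its dendritic and macrophage ranges overlapped. The 5 classes with most Ackr3, namely FAPs, endothelial cells, tenocytes, MuSC/myoblasts and myocytes, each overlapped the next, and only the step to pericytes was clear (2.78 times).

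Outside these classes the receptors were scarce. Ccr1 ran from 0 to 3.80 CPM and Ccr2 from 0.579 to 3.80 CPM in all classes but macrophages, dendritic and T/NK cells. Ccr7 was 2.49 to 3.22 CPM in macrophages and at most 1.74 CPM in the non-immune classes. Cxcr4 was 5.64 to 17.5 CPM in myocytes, pericytes, tenocytes and FAPs. Neither Cxcr6 nor Xcr1 passed 0.541 CPM outside its home class. Ackr1 was at most 1.27 CPM and Ackr3 at most 3.67 CPM in the immune classes. Low values of this kind can also come from free RNA in the droplets: Lyz2, a macrophage gene, was read at 101 to 127 CPM in FAPs and at 11231.9 to 12491.1 CPM in macrophages. In FAPs, Ccr1 (78 UMIs, 0.315 to 0.907 CPM) and Ccr2 (119 UMIs, 0.638 to 1.17 CPM) passed the minimum at such levels, with age ratios of 2.88 and 0.546.

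**Figure D1:**
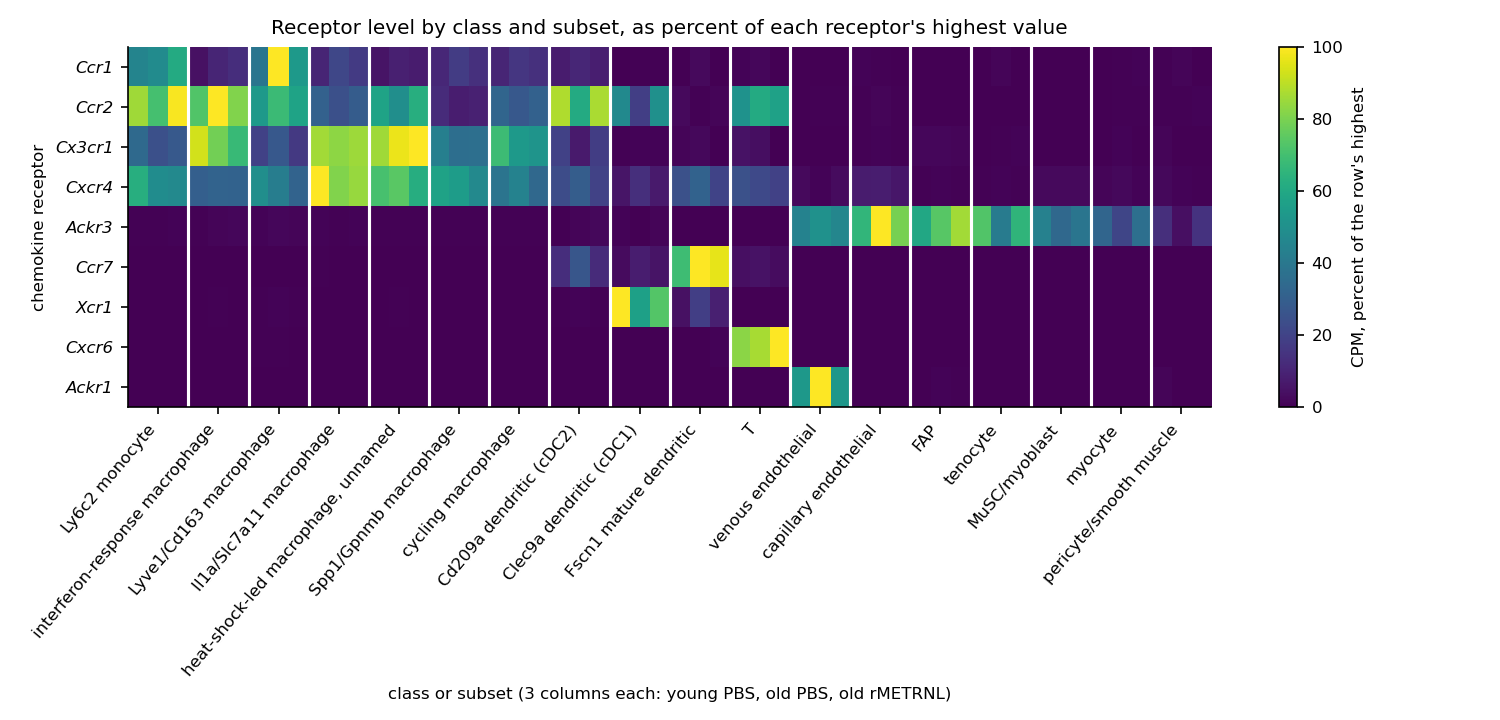
Level of each receptor (rows) in each class or subset with at least 50 kept cells in every library, with 3 columns for the young PBS, old PBS and old rMETRNL libraries; colour is CPM as a percent of the row's highest value, and names drop "-like". Ccr7, Xcr1, Cxcr6 and Ackr1 light up in 1 or few subsets, whereas Cxcr4, Ccr2 and Cx3cr1 spread over the macrophage subsets and Ackr3 over non-immune classes.

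Sequences just upstream of the start are shown for 4 receptors that were highest in different cell classes (macrophages for Cxcr4, dendritic cells for Xcr1, endothelial cells for Ackr1 and FAPs for Ackr3), so that the letters can be read beside the levels. They are the 250 bases before the RefSeq gene start in GRCm38.p6, read 5′ to 3′ on the gene's strand: chr1:128592300-128592549 (minus) for Cxcr4, chr9:123862030-123862279 (minus) for Xcr1, chr1:173333504-173333753 (minus) for Ackr1 and chr1:90203730-90203979 (plus) for Ackr3. Windows were found for 8 of the 9 receptors, Ccr7 being the one without. The RefSeq start can differ from the GENCODE gene position given for each receptor in this text. Most of the Ackr1 and Ccr2 windows and all of the Cx3cr1 window lay inside that gene position. Capitals mark matches, on either strand, to the TATA element TATAAA, the PU.1-type ETS element GNGGAAGT, the kappaB-type element (GG, any base, A, any 2 bases, TTCC) or the AP-1 element TGANTCA.
Cxcr4: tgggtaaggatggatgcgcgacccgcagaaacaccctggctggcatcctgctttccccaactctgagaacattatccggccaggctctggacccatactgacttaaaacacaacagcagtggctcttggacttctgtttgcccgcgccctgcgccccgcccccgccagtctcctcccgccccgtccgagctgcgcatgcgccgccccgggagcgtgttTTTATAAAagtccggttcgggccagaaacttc
Xcr1: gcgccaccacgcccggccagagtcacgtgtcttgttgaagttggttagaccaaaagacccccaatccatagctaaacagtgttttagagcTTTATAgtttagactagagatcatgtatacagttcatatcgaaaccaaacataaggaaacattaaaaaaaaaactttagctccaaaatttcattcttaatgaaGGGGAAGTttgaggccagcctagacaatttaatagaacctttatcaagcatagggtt
Ackr1: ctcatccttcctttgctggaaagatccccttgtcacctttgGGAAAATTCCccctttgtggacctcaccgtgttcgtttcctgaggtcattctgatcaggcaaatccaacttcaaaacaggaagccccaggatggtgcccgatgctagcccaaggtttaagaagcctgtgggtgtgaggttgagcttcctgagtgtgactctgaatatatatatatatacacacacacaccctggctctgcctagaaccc
Ackr3: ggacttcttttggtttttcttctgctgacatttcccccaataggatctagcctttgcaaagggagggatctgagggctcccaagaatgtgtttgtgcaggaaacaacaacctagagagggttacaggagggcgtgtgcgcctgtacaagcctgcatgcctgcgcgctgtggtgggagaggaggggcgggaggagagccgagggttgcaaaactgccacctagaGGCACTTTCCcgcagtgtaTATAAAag
Cxcr4 had TATAAA on both strands, overlapping, starting 32 and 30 bases before the start. In Xcr1, TATAAA stood 160 and GNGGAAGT 57 bases before the start. Ackr1 had the kappaB-type element 209 bases before the start, and Ackr3 had the kappaB-type element at 27 and TATAAA at 8 bases. None of the 4 motifs was in the windows of Ccr1, Ccr2, Cxcr6 or Cx3cr1. Over all 32851 windows of this length, TATAAA was in 12.4%, GNGGAAGT in 5.65%, the kappaB-type element in 3.35% and TGANTCA in 6.75%, so these letters are a description and not evidence of a bound site.

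In the age contrast, which divides the level in old PBS by that in young PBS, 4 of the 9 receptors were at least 1.5-fold higher in their home class (Ccr1, Ccr7, Cxcr6, Ackr1) and 0 were lower. Of all genes that passed the minimum, 6.86% were called higher in macrophages, 6.27% in dendritic cells, 8.23% in T/NK cells, 9.07% in endothelial cells and 7.64% in FAPs. The lower calls took 6.76%, 9.98%, 7.35%, 9.39% and 7% in the same classes. In the treatment contrast, old rMETRNL divided by old PBS, 2 receptors were lower (Ccr7, Ackr1) and 0 higher. The background there was 4.19%, 4.89%, 9.07%, 6.63% and 5.51% called lower and 5.76%, 8.19%, 7.13%, 6.75% and 5.04% called higher. Over all kept cells together, where shares of cell types enter too, Ccr1 and Cxcr6 were called higher and Xcr1 lower with age (background 6.83% and 9.1%), and Xcr1 higher and Cxcr6 lower with treatment (background 5.43% and 4.52%). The 2 contrasts share the old PBS library, so a value that was high or low in that library enters both, in opposite directions.

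**Figure D2:**
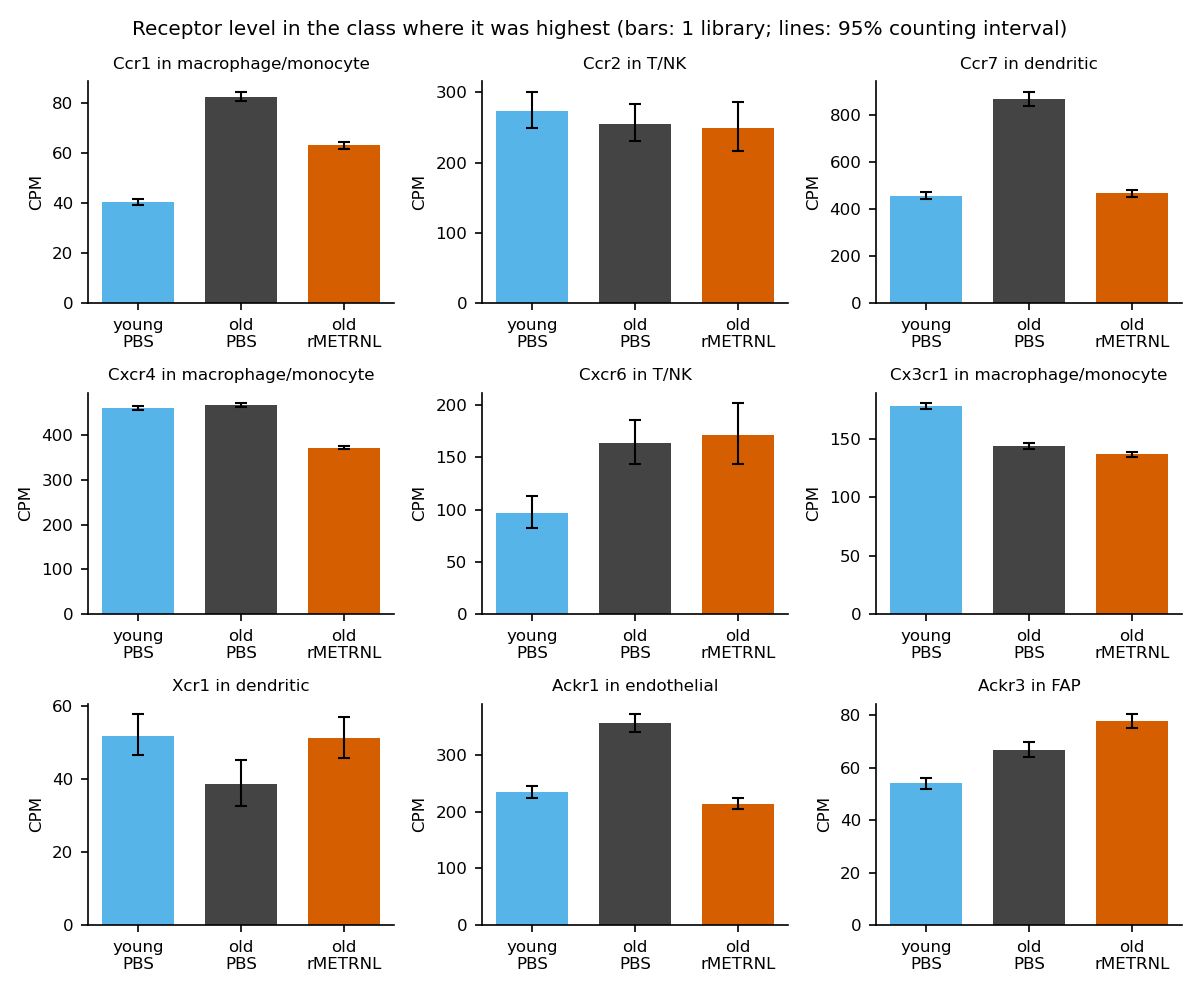
Each receptor in its home class, 1 panel a receptor; bars give CPM (axis from 0) in the 1 library of each group and lines the exact 95% Poisson interval, which covers counting error only. The old PBS bar is the highest for Ccr1, Ccr7 and Ackr1, while Cxcr6 is higher in both old libraries than in the young one.

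Ccr1, the inflammatory receptor for Ccl3, Ccl5, Ccl6 and Ccl9 (chr9:123962124-123968692, minus strand), stood out among the macrophage receptors in the age contrast. Its level in macrophages and monocytes was 40.3, 82.5 and 63.0 CPM. Old PBS was thus the highest and old rMETRNL lay between it and young PBS, with ratios of 2.05 (1.97 to 2.13) for age and 0.763 (0.739 to 0.789) for treatment. When every cell was cut down at random to 2000 UMIs (thinned), 7.48%, 13.9% and 11.1% of macrophages had a Ccr1 UMI. No thinned MuSC/myoblast did (0 of 343, 170 and 350 cells, which allows shares of up to 0.875%, 1.76% and 0.857% at that thinned depth, also for the other receptors found at 0 there), while at full depth 0.817%, 1.11% and 1.61% of them had one, with median depths of 24692.5 to 27774 UMIs there and 14081 to 14688 in macrophages.

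Of the 7 macrophage subsets, the Ccr1 difference was largest in the Lyve1/Cd163 subset, which carries markers of resident-type macrophages. Its level there was 101, 259.6 and 141 CPM. Its ratio was 2.57 (2.41 to 2.74) for age and 0.542 (0.514 to 0.570) for treatment, where 6.97% of genes in that subset were called higher with age and 4.98% lower with treatment. Thinned shares ran the same way, at 16.1%, 32.7% and 20.6% of these cells. Ly6c2 monocytes, the other subset rich in Ccr1, had 117, 125 and 158 CPM, an age ratio of 1.07 (0.973 to 1.17) whose interval held 1. Age ratios of at least 1.5-fold were seen in the other 5 subsets too: 2.30 in interferon-response, 2.08 in Il1a/Slc7a11, 1.68 in heat-shock-led, 1.602 in Spp1/Gpnmb and 1.53 in cycling macrophages. Levels in those 5 stayed at 11.8 to 55.1 CPM. Old rMETRNL had more Ccr1 than old PBS in Ly6c2 monocytes and in interferon-response macrophages (34.1 against 27.1 CPM), and less in the other subsets. With the shares of the 7 subsets held equal to their means over the libraries, the Ccr1 ratio in all macrophages was 1.86 for age and 0.771 for treatment.

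**Figure D3:**
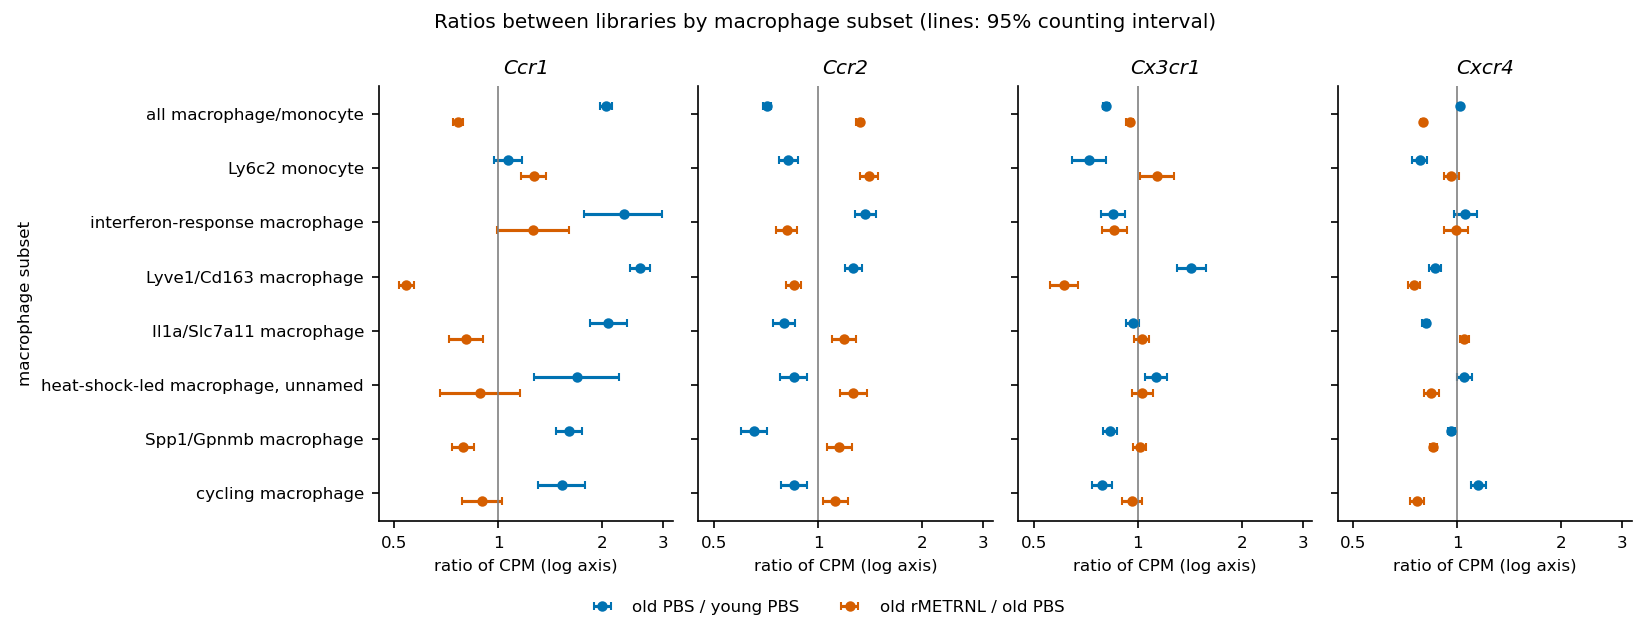
Ratios between libraries for Ccr1, Ccr2, Cxcr4 and Cx3cr1 in all macrophage/monocyte cells and in each subset, on a log axis; points are the age and the treatment ratio, and lines the exact 95% interval of counting error. For Ccr1 the age points lie right of 1 in every subset, lowest in Ly6c2 monocytes (1.07) and highest in Lyve1/Cd163 macrophages (2.57), while Ccr2 points lie on both sides of 1.

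Ccr2, the receptor for Ccl2 that lets monocytes leave the marrow and enter tissue (chr9:124101950-124113557, plus strand), was spread over several immune subsets. In T/NK cells it measured 274, 256 and 249.5 CPM, and the interval of its age ratio held 1 (0.933, 0.812 to 1.07). Of the finer subsets with at least 50 cells in each library, those with most Ccr2 were Ly6c2 monocytes (286, 235 and 329.7 CPM) and interferon-response macrophages (243, 334 and 271 CPM), and the ranges of these subsets and of Cd209a dendritic cells (cDC2) overlapped. The subset with least Ccr2 among macrophages was Spp1/Gpnmb, at 41.4, 27.0 and 31.1 CPM. Over all macrophages the level was 148, 105.5 and 139 CPM, a ratio of 0.712 (0.694 to 0.731) for age and 1.32 (1.29 to 1.35) for treatment. Neither reached 1.5-fold, and the subsets went both ways. Age ratios were below 1 in Ly6c2 monocytes (0.820) and Spp1/Gpnmb macrophages (0.653), and above 1 in interferon-response (1.37) and Lyve1/Cd163 macrophages (1.26).

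The makeup of the macrophage class differed between libraries in a way that touches Ccr2. Kept interferon-response macrophages, rich in Ccr2, numbered 1388, 261 and 920, while Spp1/Gpnmb macrophages, poor in it, numbered 1282, 1852 and 1828. With subset shares held equal, the Ccr2 ratio over all macrophages was 1.03 for age and 1.03 for treatment. Dendritic cells also had less Ccr2 in old PBS, at 240.3, 143 and 241 CPM. There the age ratio was 0.596 (0.540 to 0.657), the treatment ratio 1.68 (1.53 to 1.85), and with equal subset shares 0.623 and 1.59. Within dendritic cells, Clec9a cells (cDC1) measured 159, 61.5 and 168 CPM, an age ratio of 0.387 (0.281 to 0.527) against a background of 10.4% called lower. Ccr2 in cDC2 was 294, 204 and 291 CPM, a ratio of 0.693 (0.610 to 0.785). In both dendritic subsets the old PBS library was the lowest of the 3. Thinned shares with a Ccr2 UMI were 23.2%, 18.6% and 22.4% of macrophages, against 0.875%, 0% and 0.571% of MuSC/myoblasts.

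Cx3cr1, the fractalkine receptor of patrolling monocytes and tissue macrophages (chr9:119901616-120069879, minus strand), was lower in both old libraries over all macrophages, but by less than 1.5-fold. The levels were 178, 144 and 137 CPM, a ratio of 0.809 (0.791 to 0.827) for age and 0.949 (0.927 to 0.971) for treatment. Within macrophages, the 2 subsets with most Ccr1 had the least Cx3cr1. Il1a/Slc7a11 macrophages (249, 241 and 247 CPM), heat-shock-led cells (249, 281 and 289.8 CPM) and interferon-response macrophages (269.5, 228 and 195 CPM) overlapped one another at the top. Lyve1/Cd163 macrophages had 55.6, 79.4 and 48.6 CPM, the lowest mean of the macrophage subsets though overlapping Ly6c2 monocytes (98.5, 71.1 and 80.9 CPM), with a ratio of 1.43 (1.30 to 1.57) for age and 0.612 (0.559 to 0.670) for treatment. Cx3cr1 in cDC2 behaved like Ccr2 there, at 56.3, 20.7 and 52.3 CPM, lowest again in old PBS, and its ratio was 0.367 (0.248 to 0.529) for age and 2.53 (1.75 to 3.75) for treatment. In that subset 12.8% of genes were called lower with age and 11.2% higher with treatment. In FAPs, 525 Cx3cr1 UMIs were counted, of which 10 cells a library gave 81.5%, 76.3% and 85.4%, so that level (4.24 to 4.61 CPM) belongs to few cells.

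Single macrophages, thinned to 2000 UMIs, showed how these receptors sat together. Ccr2 was detected in 44.6%, 36.0% and 46.1% of cells with a Ly6c2 UMI and in 18.3%, 16.6% and 17.4% of cells without one. Cx3cr1 ran the other way, at 16.6%, 15.2% and 15.03% of cells with Ly6c2 and 23.6%, 22.1% and 20.04% of cells without. Ccr2 thus went with the monocyte marker and Cx3cr1 with its absence in each of the 3 libraries. The 2 receptors did not exclude each other. Ccr2 was found in 25.5%, 19.4% and 25.5% of cells with Cx3cr1 and in 22.6%, 18.3% and 21.7% of cells without. UMIs of both receptors were in 5.69%, 4.15% and 4.88% of macrophages. Ccr1 was found in 10.2%, 21.1% and 17.1% of cells with Ccr2 and in 6.65%, 12.3% and 9.32% of cells without.

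Cxcr4, the receptor for Cxcl12 (chr1:128588199-128592293, minus strand), was the receptor with most UMIs, 141801 of them in kept cells. Its class order was macrophages, T/NK cells, dendritic cells, endothelial cells and MuSC/myoblasts, and no neighbours among these overlapped. Macrophages had 459.7, 467 and 372 CPM. Young and old PBS were close, with a ratio of 1.02 (1.003 to 1.03), and old rMETRNL was lowest, with a treatment ratio of 0.796 (0.786 to 0.807). Il1a/Slc7a11 macrophages were the subset with the highest level (815, 659 and 690.3 CPM), and 74.5%, 64.7% and 67.5% of them had a Cxcr4 UMI after thinning, against 1.09%, 0.971% and 0.952% of tenocytes. The lowest of the macrophage subsets was the interferon-response one, at 245, 259 and 256 CPM.

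Subsets again differed from the class as a whole for Cxcr4. Age ratios were below 1 in Ly6c2 monocytes (0.777, 0.741 to 0.815), Il1a/Slc7a11 (0.809, 0.788 to 0.830) and Lyve1/Cd163 macrophages (0.861, 0.827 to 0.896), and above 1 in cycling macrophages (1.15, 1.10 to 1.21). Il1a/Slc7a11 macrophages numbered 885, 1345 and 676, and with equal subset shares the class ratio was 0.906 for age and 0.901 for treatment. Dendritic cells had 131, 185 and 117 CPM, a ratio of 1.42 (1.28 to 1.57) for age and 0.630 (0.569 to 0.698) for treatment, called lower where 4.89% of genes were. Of their subsets, cDC1 had the widest range, at 47.4, 110.2 and 57.3 CPM, an age ratio of 2.33 (1.67 to 3.27) against a background of 11.6% called higher. In the stem-cell class, MuSC/myoblasts, Cxcr4 was 19.5, 20.3 and 21.4 CPM, and both ratios had intervals that held 1. Among all genes of that class 5.8% were called higher and 4.91% lower with age, and 4.18% and 5.72% with treatment.

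Ccr7, the receptor for Ccl19 and Ccl21 (chr11:99144196-99155077, minus strand), had its highest level in mature dendritic cells but was not confined to them. Its UMIs numbered 1544, 1578 and 1582 in mature dendritic cells and 1199, 1501 and 1186 in cDC2. Fscn1 mature dendritic cells had 2238, 3238 and 3124 CPM, 5.11 times the mean of cDC2, the next subset. A Ccr7 UMI was found, after thinning, in 84.9%, 96.2% and 94.8% of mature dendritic cells and in 0%, 0% and 0.571% of MuSC/myoblasts. Over all dendritic cells the level was 456.5, 867 and 466 CPM, so old PBS stood alone. Its ratio was 1.90 (1.81 to 1.997) for age and 0.537 (0.511 to 0.564) for treatment. Both old libraries were high in mature cells, where its ratio was 1.45 (1.35 to 1.55) for age and 0.965 (0.899 to 1.04) for treatment, whereas cDC2 were high in old PBS alone and cDC1 had most in old PBS, with old rMETRNL between it and young PBS. Levels in cDC2 were 419.5, 861 and 403 CPM (ratios 2.05 and 0.468), and in cDC1 99.5, 255 and 167 CPM (ratios 2.57 and 0.653). Background calls in cDC2 were 8.1% higher with age and 6.38% lower with treatment. Mature cells were 77 of 588, 53 of 325 and 63 of 604 dendritic cells, and equal subset shares gave 1.74 and 0.707. Under a stricter cell filter the age ratio in dendritic cells was 1.28 and the treatment ratio 0.672, both short of 1.5-fold.

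Xcr1, the receptor for Xcl1 (chr9:123852315-123862029, minus strand), was the receptor of cDC1. This subset had 201, 114 and 147 CPM, 7.28 times the level of mature dendritic cells, where values ran from 8.70 to 36.9 CPM. Old PBS was the lowest, with an age ratio of 0.567 (0.444 to 0.718) against a background of 10.4% called lower in cDC1, and a treatment ratio of 1.30 (1.02 to 1.65). Over all dendritic cells Xcr1 was 51.9, 38.5 and 51.1 CPM, ratios of 0.742 and 1.33, not called, though under the stricter cell filter they were 0.4998 and 1.72. Thinned shares of cDC1 with an Xcr1 UMI were 25.8%, 18.0% and 30.1%, and their intervals overlapped (17.3 to 35.9%, 9.36 to 29.98% and 22.4 to 38.6%). Kept cDC1 numbered 93, 62 and 134.

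**Figure D4:**
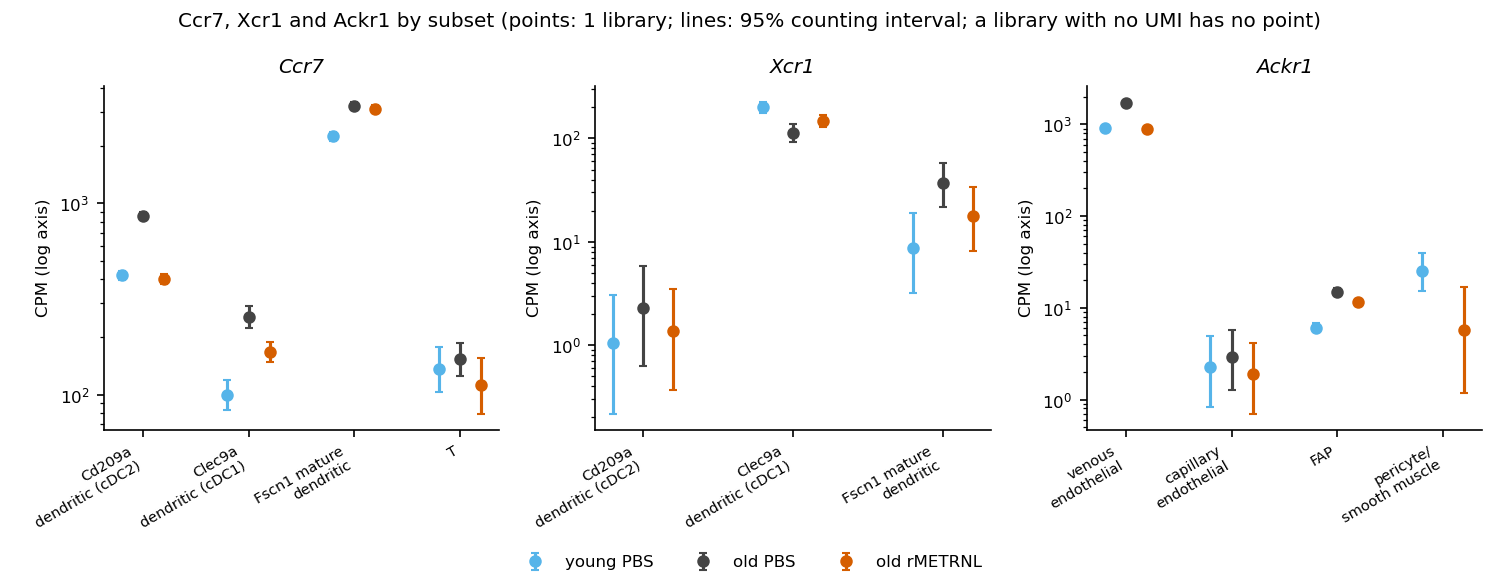
Ccr7 in dendritic subsets and T cells, Xcr1 in dendritic subsets, and Ackr1 in endothelial subsets, FAPs and pericytes, on a log CPM axis. Each point is 1 library and lines are exact 95% Poisson intervals, with values of 0 left out and names without "-like". The young PBS point of Ackr1 in pericytes rests on 19 UMIs in 1 cell. Ccr7 is highest in mature, Xcr1 in cDC1 and Ackr1 in venous cells, and old PBS lies above both other libraries for Ccr7 in cDC2 and for Ackr1 in venous cells.

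Cxcr6, the receptor for Cxcl16 (chr9:123806475-123811760, plus strand), had the fewest UMIs, 627, of which 540 lay in T/NK cells. The level there was 96.8, 164 and 171 CPM. Both old libraries were above the young one, with a ratio of 1.70 (1.38 to 2.08) for age and 1.04 (0.841 to 1.29) for treatment. In the T subset alone the values were 143, 150.4 and 173 CPM, and the interval of the age ratio held 1 (1.05, 0.754 to 1.48), in a subset where 10.7% of genes were called higher and 7.34% lower with age, and 8.43% higher and 9.64% lower with treatment. T cells were 77 of 206, 109 of 177 and 59 of 121 T/NK cells, and with equal subset shares the class ratio was 1.39. Much of the Cxcr6 came from groups too small for a ratio. Gamma-delta T/ILC cells (11, 14 and 16 of them) had 520.4, 969 and 1144 CPM, and NK cells (90, 27 and 35) had 5.54, 110.3 and 12.9 CPM, the old PBS value resting on 32 UMIs. After thinning, 15.8%, 26.1% and 20.5% of T/NK cells had a Cxcr6 UMI, and 0 of 343, 170 and 350 MuSC/myoblasts. T/NK cells also carried Ccr7 (77.4, 113 and 125 CPM) and Cxcr4 (207, 195 and 188 CPM), neither of which was called in either contrast.

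Ackr1, the atypical receptor that carries chemokines across the venular wall (chr1:173331886-173333750, minus strand), was a receptor of venous endothelium. Venous endothelial cells had 901, 1693 and 894 CPM, while capillary cells stayed at 1.90 to 2.91 CPM, arterial cells (35, 53 and 39) had 0 UMIs, and endothelial cells with no subset name had 12.8 to 40.2 CPM. The venous value in old PBS stood far above the other two, with a ratio of 1.88 (1.77 to 2.002) for age and 0.528 (0.496 to 0.563) for treatment. In that subset 8.36% of genes were called higher with age and 6.94% lower with treatment. Thinned shares were 57.1%, 76.4% and 54.0% of venous cells, whose median depths were 12051, 10909 and 11902 UMIs, and at most 0.170% of dendritic cells. Over all endothelial cells the level was 235, 357 and 215 CPM, ratios of 1.52 (1.43 to 1.62) and 0.601 (0.566 to 0.639). The mean of per-cell CPM turned that age ratio to 0.718. Endothelial cells of old PBS had a median of 3603 UMIs against 10743 in young PBS, and 584 of their 868 cells were capillary against 263 of 600; the part of depth and of subset shares in that reversal was not tested beyond the venous value and the equal-share ratio, 1.82.

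Ackr3, the scavenger of Cxcl12 (chr1:90203980-90216751, plus strand), was carried by non-immune cells. FAPs had 54.0, 66.9 and 77.8 CPM, ratios of 1.24 (1.17 to 1.32) and 1.16 (1.10 to 1.23). After thinning, 8.44%, 11.5% and 13.03% of FAPs had an Ackr3 UMI, against 0.150%, 0.211% and 0.246% of macrophages. Capillary endothelial cells had 59.5, 90.2 and 71.6 CPM, an age ratio of 1.52 (1.24 to 1.86) where 10.5% of genes were called higher. Tenocytes went the other way, with 65.6, 37.7 and 58.9 CPM and ratios of 0.574 (0.431 to 0.754) and 1.56 (1.18 to 2.09), where 8.94% were called lower and 8.48% higher with age, and 8.73% higher and 6.43% lower with treatment. Myocytes had 29.5, 18.8 and 32.8 CPM (ratios 0.638 and 1.74), in a class where 41.2% of genes were called lower with age and 33.5% higher with treatment and where median depth was 29804, 2166 and 3123 UMIs. MuSC/myoblasts had 39.6, 30.5 and 35.2 CPM and were not called.

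Among FAPs, both atypical receptors were highest in particular clusters, though Ackr3 was not confined to them. A cluster led by Pi16, Sema3c and Dpp4 (115, 144 and 213 cells) had 437, 375 and 381 CPM of Ackr3. The next of the clusters with at least 50 cells in each library was led by Myoc and Clu (89, 134 and 125 cells), with 93.6, 114 and 125 CPM. In the other clusters of that size Ackr3 ran from 6.50 to 70.2 CPM. A smaller cluster led by Hmcn2 and Crispld2 (16, 98 and 50 cells) had 155, 99.6 and 184 CPM. Ackr1 was also highest in these clusters, at 50.2, 82.1 and 61.0 CPM in the Pi16 cluster and 39.2, 56.4 and 48.5 CPM in the Myoc cluster, against at most 8.78 CPM in the other clusters with at least 50 cells in each library. Over all FAPs Ackr1 was 6.09, 14.9 and 11.6 CPM, an age ratio of 2.44 (2.10 to 2.85) where 7.64% of genes were called higher, and a treatment ratio of 0.778. The Pi16 and Myoc clusters made up more of the old FAPs (144 and 134 of 1345 cells in old PBS) than of the young (115 and 89 of 1624).

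**Figure D5:**
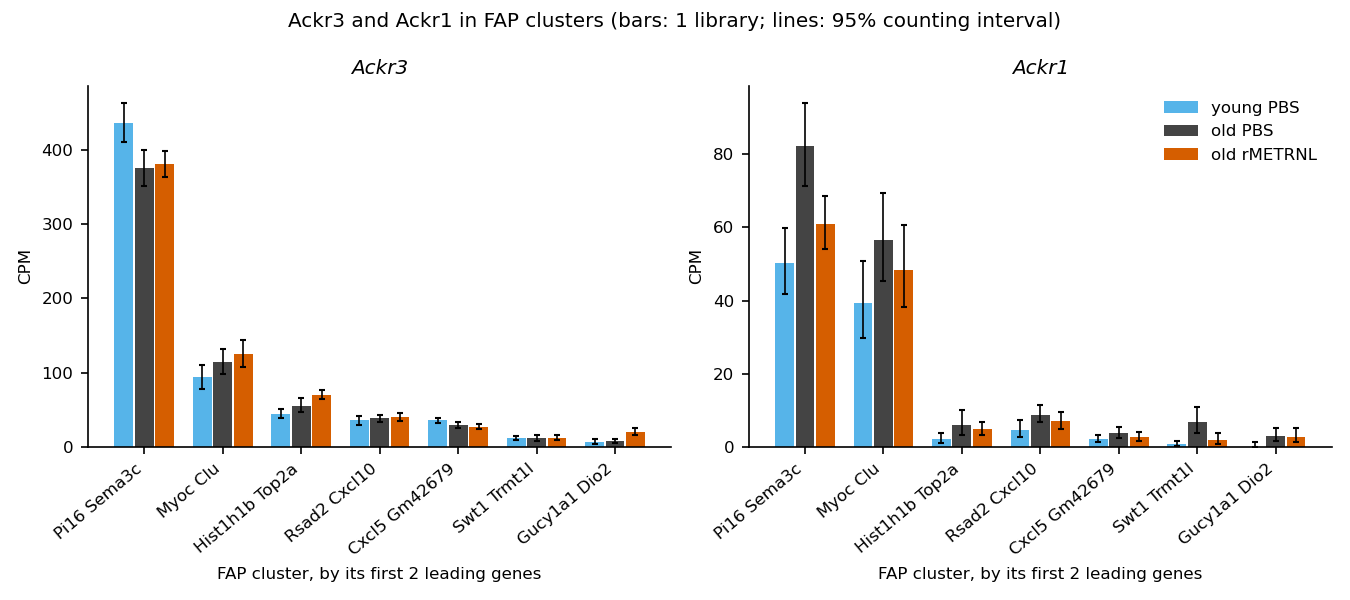
Ackr3 and Ackr1 CPM in FAP clusters, named by their first 2 leading genes; bars (axis from 0) are the 1 library of each group and lines the exact 95% Poisson interval. Both receptors are highest in the Pi16 Sema3c cluster, where Ackr3 lies between 375 and 437 CPM.

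The genes whose levels followed each receptor most closely were found over 54 profiles, namely 18 classes and subsets in each of 3 libraries, by Pearson's r of log2(CPM + 1) among 14912 genes. Profiles of 1 library share its depth and preparation, so r is a description, and Nkg7, Klrd1 and Sele are also among the markers that named classes or subsets. For Ccr1 they were Cd300lb (r = 0.928), Itgam and Cd300ld, and for Ccr2 Lpxn (0.961), Lrmp and Cd53. Cxcr4 was followed by Ly9 (0.947), Lilr4b and Lilrb4a, and Cx3cr1 by Tlr8 (0.951) and Igsf6. Nearest to Ccr7 were Stat4 (0.958), Klrd1 and P2ry10, to Xcr1 Ffar4 (0.947), Gpr141b and Gm36723, and to Cxcr6 Nkg7 (0.986) and Gm2682. The atypical receptors had Tll1 (0.922), Cytl1 and Sele beside Ackr1, and Tspan6 (0.962), Amotl2 and S100a16 beside Ackr3. Among the receptors themselves, Ccr1 and Cx3cr1 had r = 0.861, Cxcr4 and Cx3cr1 0.824, and Cxcr4 and Ackr3 -0.847.

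The ligands of these receptors lay partly in the same and partly in other cells. Of 15 ligands, 7 were highest in macrophages among the classes (Ccl8, Ccl12, Ccl3, Ccl4, Ccl6, Ccl9, Cxcl16). Among the classes Ccl2 and Ccl7 were highest in FAPs, at 1697, 1789 and 2147 CPM for Ccl2. The Lyve1/Cd163 macrophage subset had more of both, at 2999, 2884 and 3292 CPM for Ccl2 and 1969, 1872 and 1983 CPM for Ccl7. Cxcl12, the ligand of Cxcr4 and Ackr3, was highest in endothelial cells (636.5, 861 and 955 CPM), as was Cx3cl1, the ligand of Cx3cr1 (35.0, 40.6 and 43.9 CPM). T/NK cells had the most Xcl1, the ligand of Xcr1, at 1025, 642 and 671 CPM. Ligand and receptor were thus highest in different classes for Ccr2, Ccr7, Cxcr4, Cxcr6, Cx3cr1, Xcr1 and Ackr3. By subset, however, Cxcl12 (1094, 1341 and 1492 CPM) and Ackr3 both had their highest mean in capillary endothelial cells, where Ackr3 overlapped FAPs. Ccr1 shared the macrophage class with its ligands Ccl3, Ccl6 and Ccl9, but not with Ccl5, which was highest in T/NK cells (2594, 3641 and 2421 CPM). By subset, Ccr1, Ccl3 (924, 623 and 828 CPM) and Ccl6 (510.5, 549 and 750.5 CPM) all had their highest mean in Lyve1/Cd163 macrophages. Ccl9 had its highest in Ly6c2 monocytes and Ccl5 in mature dendritic cells.

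In macrophages, 13 ligands passed the minimum, of which 0 were higher and 4 lower with age (Ccl12, Ccl3, Ccl4, Ccl21a), where 6.76% of genes were called lower. With treatment 6 were higher (Ccl8, Ccl12, Ccl3, Ccl4, Ccl21a, Cx3cl1) and 0 lower, where 5.76% were called higher. Ccl3, a ligand of Ccr1, was 418, 231 and 396 CPM, so it was lowest in old PBS, the library where Ccr1 was highest. Ccl4 followed the same course (753, 425 and 760.3 CPM), as did Ccl12, a ligand of Ccr2 (125, 76.7 and 152 CPM), while Ccl21a and Cx3cl1 rest on 54 and 64 UMIs. The makeup of the class enters these values, since subset shares were not held equal for the ligands. In Lyve1/Cd163 macrophages, their top subset, the libraries lay relatively closer: Ccl3 924, 623 and 828, Ccl4 1868, 1399 and 1776, and Ccl12 356, 304.6 and 367.7 CPM. The median log2 ratio of the ligands was -0.13 for age and 0.58 for treatment, beside -0.00066 and 0.045 over all 14294 genes tested. The 9 receptors in the same cells had medians of 0.19 and -0.12, with 3 called higher with age (Ccr1, and on 124 and 99 UMIs Xcr1 and Ackr1), where 6.86% of genes were, and 0 called with treatment. These medians were the values of Ackr3 and Ackr1. With Ccr7, Cxcr6 and Xcr1, those receptors had at most 3.22 CPM in macrophages, levels that can also come from free RNA.

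Other chemokine receptors were mostly scarce. Of 15, 7 passed the minimum in macrophages, with 3 lower and 0 higher with age (Ccr3, Ccr10, Cxcr3) and 3 higher (Ccr3, Ccr10, Cxcr2) and 1 lower (Ccrl2) with treatment. Of all genes in macrophages 6.76% were called lower and 6.86% higher with age, and 5.76% higher and 4.19% lower with treatment. Of those named, Ccrl2, an atypical binder of chemerin, was abundant (222, 276 and 180.4 CPM), while the others had at most 3.73 CPM. The 16 genes of receptor signalling and desensitisation all passed in macrophages. With age 1 was lower (Rgs2, an inhibitor of G protein signalling, at 296.5, 190.4 and 244 CPM), beside the same 6.76% of all genes, 0 were higher, and with treatment 0 were called. Their medians, 0.022 and -0.021, lay close to those of all genes.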

How the data were processed

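Single-cell RNA was measured in 3 libraries (10x Genomics), each a pool of 3 samples. The deposited values are raw UMI counts per gene and barcode in filtered matrices, which the authors made with Cell Ranger (the file headers name 5.0.0, and the submitters' notes name 5.0.0 and 3.1.0) on mm10, with no normalization.

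Barcodes entered if they showed 500 genes or more and less than 10% mitochondrial UMIs. Doublets were called with Scrublet in scanpy 1.11.5; the automatic threshold marked 0 cells, so the highest scores were removed at 0.8% per 1000 barcodes (1230, 1334 and 1575 cells). Cells were clustered (2000 variable genes without chemokine receptors, 30 principal components, 20 neighbours, Leiden resolution 0.8) and named from marker lists; B cells, neutrophils and clusters whose markers went against their name were left out of the classes. UMIs were summed per class or subset and library and scaled to CPM, with exact 95% Poisson intervals and exact conditional intervals for ratios. With 1 library a group no test was possible. The ratio code was tested on simulated data. Shares of cells with a UMI used cells thinned to 2000 UMIs, with exact binomial intervals, and a count of 0 allows up to 3 counts.

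Named genes are the receptors, their ligands, other chemokine receptors and signalling genes by fixed lists, and for each receptor the 3 genes with the highest Pearson's r; some genes under these rules are not reported here. The receptors and lists were chosen with earlier results of these data known. Positions are GENCODE M21 (GRCm38), where 32158 of 32285 gene identifiers matched. The annotated Cx3cr1 model is long and overlaps Gorasp1 and Csrnp1 on the same strand, Wdr48 and Ttc21a on the opposite strand, and other genes. Cxcr6 overlaps Fyco1 on the opposite strand, and Ackr1 overlaps Cadm3 on the same strand. Counts of these receptors may be affected, and how reads in the overlaps were counted was not examined. Promoter sequences are from RefSeq. Python 3.11.15, numpy 2.4.6, scipy 1.17.1, pandas 2.3.3, leidenalg 0.10.2 and matplotlib 3.10.9 were used.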

Additional observations from a re-analysis of the deposited data

Results flagged for a closer look

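Several receptors went in opposite directions in different cells under the same contrast, and with 1 library a group these differences were not tested. In the age contrast Ccr7 had a ratio of 2.57 in Clec9a dendritic cells and 0.492 in Il1a/Slc7a11 macrophages, where its level was 6.28 to 12.8 CPM. Cxcr4 had an age ratio of 2.33 in Clec9a dendritic cells and 0.375 in venous endothelial cells, the latter on 99 UMIs. For Cxcr4 the treatment ratio was 2.98 in venous endothelial cells and 0.455 in myocytes, which had 105 UMIs. The treatment ratio of Cx3cr1 was 2.53 in Cd209a dendritic cells and 0.612 in Lyve1/Cd163 macrophages. Xcr1 had an age ratio of 1.80 in macrophages, on 124 UMIs, and 0.567 in Clec9a dendritic cells. Ackr3 had an age ratio of 1.52 in capillary endothelial cells and 0.574 in tenocytes. All of these compare 1 library with 1 library, and old PBS enters both contrasts.

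Cells left out of the classes also carried receptors. In 36 cells named B by their markers, Ccr7 was 481 CPM and Cxcr4 395 CPM. In 60 cells named neutrophil, Ccr1 was 899 CPM and Cxcr4 971 CPM, both above every macrophage subset.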

How the results depend on the processing

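No paired analysis was possible because each group was 1 library. Over 14 alternatives, 60 counts and main values equalled those in the text or lay within 1.5-fold of them. The other 7 counts moved further. Under the stricter cell filter the age contrast had 2 receptors higher (Ccr1, Ackr1) and 1 lower (Xcr1), and the treatment contrast 1 higher (Xcr1) and 1 lower (Ackr1); T/NK cells then numbered under 100 in a library, so Ccr2 and Cxcr6 had no value. With the mean of per-cell CPM, 1 receptor was lower with treatment (Ccr7). The count higher with age was 3, without Ackr1, under that mean, the looser cell filter, totals without mitochondrial and ribosomal protein genes, and without cells of shared barcodes. At 2-fold, 1 was higher with age (Ccr1) and 0 lower with treatment. Apart from the higher bar at 2-fold, the cause of these moves was not tested. Of 194 home-class ratios under 11 alternatives, 189 lay on the same side of 1 as in the text. The one called ratio that reversed was that of Ackr1 with age, 0.718 with the mean of per-cell CPM. Ranges over those 11 for age were 1.96 to 2.16 for Ccr1, 1.28 to 1.95 for Ccr7, 1.54 to 1.80 for Cxcr6 and 0.718 to 1.84 for Ackr1, and for treatment 0.522 to 0.672 for Ccr7 and 0.586 to 0.951 for Ackr1. Equal subset shares fell outside these ranges, at 1.86 for Ccr1 and 1.39 for Cxcr6 with age and 0.707 for Ccr7 and 0.550 for Ackr1 with treatment, so that Cxcr6 with age and Ccr7 with treatment were short of 1.5-fold. Alternatives without cells whose barcode was found in another library, and with equal subset shares in dendritic, T/NK and endothelial cells, were chosen after seeing the data. Depth limits Cxcr6 (627 UMIs) and Xcr1 (1014 UMIs) most.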

Other observations

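A cluster led by Retnla and Mgl2 that was left out of the classes (218 cells over the 3 libraries) had 419 CPM of Ccr2, 237 of Cxcr4, 125 of Ccr1 and 51.7 of Cx3cr1. Plasmacytoid dendritic cells (66, 21 and 55 cells) had 294, 163 and 287 CPM of Ccr2, so that old PBS was lowest there as in the other dendritic subsets with Ccr2, and 12.4, 56.1 and 38.3 CPM of Ccr7. NK cells had 372, 469 and 268 CPM of Ccr2 on 90, 27 and 35 cells.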
